A study of Cucumis melo with 9 samples.

Results

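The MYB genes of melon were taken here as every gene whose deposited description holds MYB at the start of a word, in any case, with CmMYB44 (MELO3C007586.2), MELO3C009422.2 and MELO3C020620.2 added by ID. They numbered 340 of 29980 genes. The word selected 339 of them, and 1, the telomere repeat-binding MELO3C020620.2, came in by its ID alone. The word also selected 4 genes described as target of Myb protein 1, which are not MYB factors. They were kept and are described apart.

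MYB proteins bind DNA through repeats of about the same helix-turn-helix fold, and the number of repeats separates the families. Plant genomes are rich in R2R3 MYB factors with a pair of repeats, which are known to act on phenylpropanoid and flavonoid synthesis, cell shape, and responses to drought, cold and abscisic acid. Factors with a single repeat include regulators of the circadian clock, those with 3R in their name control genes of cell division, GARP proteins such as the phloem regulator APL carry a related motif, and Myb/SANT-like domains occur in many proteins of transposon origin. Arabidopsis MYB44, after which CmMYB44 is named, is an R2R3 factor of abscisic acid and stress signalling.

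RNA was sequenced from ripe fruit of 'HT', a climacteric oriental melon grown in a greenhouse, in 3 libraries for each of 3 groups, and each library held 3 fruits. Recovered fruit (Group A) had been stored for 7 d at 4°C and then for 1 d at about 22°C. Chilled fruit (Group B) had been at 4°C for 8 d, and unchilled fruit (Group C) were picked 8 d later than the other groups and never stored. Recovered and chilled fruit thus differ in the last day, whereas storage and harvest date cannot be told apart where either is set against unchilled fruit. All comparisons share libraries, so that their values are given side by side for each gene.

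The libraries held 15508367 to 19011486 counted reads, with counts in 18219 to 18581 genes. Levels are given as TMM-scaled FPKM, the deposited FPKM (reads set against gene length and library size) divided by a factor (TMM) that sets the bulk of genes equal between libraries. The factors were 1.12 to 1.13 in recovered, 0.764 to 0.808 in chilled and 1.11 to 1.13 in unchilled fruit. With library totals as the scale, the median over all tested genes was -0.56 for chilled over unchilled and 0.49 for recovered over chilled fruit on the log2 scale. Of 89 fruit markers (CmACO1, CmAAT1, CmNOR, CmADH1, polygalacturonases and phytoene synthases) 22 were tested, and their summed level was 5279 to 7443 in recovered, 1163 to 1358 in chilled and 5289 to 6312 in unchilled fruit. Green tissue markers, with 17 of 19 tested, summed to 5942 to 7633 in recovered, 4789 to 5782 in chilled and 16035 to 24032 in unchilled fruit. Of 39 seed markers 25 had no count, and their sum was 18.3 to 23.7, 53.8 to 90.4 and 47.1 to 62.0 in these groups. The 3 tested seed markers did not move together. For chilled over unchilled fruit 2 rose and 1 fell, with log2 fold changes from -1.04 to 3.55. The sum of 86 chloroplast-encoded genes was 128 to 190 in recovered, 228 to 312 in chilled and 146 to 200 in unchilled fruit. The part of these markers in the MYB results was not tested.

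Most MYB genes were silent or nearly so in this fruit. No read was counted for 202 of the 340 (59.4%, against 29.2% of all genes), 71 had reads but a mean FPKM of 1 or less, and 67 (19.7%, against 50.1% of all genes) passed this filter and were tested. Of the 202 genes with no read, 154 were Myb/SANT-like. Outside that class 48 of 155 members had no read and 61 were tested. The 71 untested genes had a median of 15 reads over the 9 libraries. Members lay on all 12 chromosomes, with 16 on unplaced sequence. A DNA-binding term stood in the annotation of 307 members (90.3%), against 5.41% of all genes. Tested members were of modest level, with a median of 9.55 TMM-scaled FPKM against 13.9 for all tested genes, and 23 of the 67 averaged under 5. The most abundant 3 averaged above 100.

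By their descriptions the members fell into 7 classes. Myb/SANT-like genes were the most numerous with 185, but 154 of them had no count and 6 were tested. Of 81 genes described as MYB without a subtype 24 were tested, of 35 with an Arabidopsis-style number 12, of 25 described as MYB-related or single-repeat 15, and of 9 of the GARP type 5. The 4 targets of Myb and the telomere repeat-binding gene were all tested. A further name, L10-interacting MYB domain protein, stood for 25 genes within these classes, of which 21 had no count and none was abundant enough to be tested. Classes rest on descriptions and not on protein sequence, so that the genes described as 3R-1 are among the MYB-related ones.

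CmMYB44, on chromosome 8 (chr8:3884816-3886331, plus strand), was lower in chilled fruit than in either other group. Its transcript level was 15.1, 9.96 and 12.8 TMM-scaled FPKM in the 3 recovered libraries, 6.06, 7.6 and 4.77 in the chilled ones and 17.6, 14.7 and 12.6 in the unchilled ones. The chilled libraries did not overlap with either other group, while recovered and unchilled libraries overlapped. Chilled fruit were 2.44-fold below unchilled fruit (log2 fold change -1.29, SE 0.22, edgeR adjusted p = 0.00046), and recovered fruit were 2.06-fold above chilled fruit (1.04, SE 0.22, edgeR adjusted p = 0.00166). A gene is called here at an adjusted p below 0.05 and an absolute log2 fold change above 1. The call between recovered and chilled fruit is therefore close to the threshold, and it was lost without recovered replicate 1 (0.89) or without chilled replicate 3 (0.88). Between recovered and unchilled fruit the log2 fold change was -0.25 (SE 0.21, edgeR adjusted p = 0.388). In these bulk samples fewer cells that express a gene and less RNA per cell cannot be told apart.

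MELO3C012077.2 (chr10:2797588-2803074), a Myb family factor of no stated subtype, followed the same order of groups. It was at 8.93, 6.72 and 7.64 in recovered, 2.37, 3.41 and 3.31 in chilled and 10.8, 9.91 and 12.1 TMM-scaled FPKM in unchilled fruit, with no overlap between any groups. The log2 fold change was -1.85 (SE 0.17, edgeR adjusted p = 8.24e-06) for chilled over unchilled and 1.35 (SE 0.17, edgeR adjusted p = 6.18e-05) for recovered over chilled fruit. Recovered fruit were 1.41-fold below unchilled fruit (-0.49, SE 0.16, edgeR adjusted p = 0.0401), which is under the fold threshold.

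MELO3C009422.2 (chr4:32269350-32270927), a Myb/SANT-like gene, had the widest range of the 4 genes known by ID. Its levels were 179, 164 and 224 TMM-scaled FPKM in recovered fruit, 5.67, 2.52 and 2.21 in chilled fruit and 49.2, 47.3 and 42.1 in unchilled fruit. The 3 groups were far apart, with recovered fruit on top. Chilled fruit were 13.5-fold below unchilled fruit (log2 fold change -3.75, SE 0.32, edgeR adjusted p = 8.35e-06), recovered fruit 55.1-fold above chilled fruit (5.78, SE 0.34, edgeR adjusted p = 8.18e-07) and 4.09-fold above unchilled fruit (2.03, SE 0.28, edgeR adjusted p = 0.00102).

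MELO3C020620.2 (chr12:1605708-1611361), described as telomere repeat-binding protein 5-like, was higher in chilled fruit. Proteins of this kind bind telomere-type repeats through a single MYB-like repeat. The levels were 67.2, 64.1 and 66.4 TMM-scaled FPKM in recovered, 120, 109 and 104 in chilled and 55.2, 54.9 and 49.2 in unchilled fruit, and no groups overlapped. The log2 fold change was 1.07 (SE 0.08, edgeR adjusted p = 2.02e-06) for chilled over unchilled fruit. This call depended on the scaling, and the value was 0.57 with library totals and 0.56 to 0.57 with limma on the deposited FPKM, which are scaled by library totals. Without the filter on low values it was 0.93. Recovered over chilled fruit gave -0.76 (SE 0.08), under the fold threshold. The study singled out CmMYB44, MELO3C012077.2 and MELO3C020620.2 in these same libraries, so that their values are not independent evidence of their direction.

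**Figure D1:**
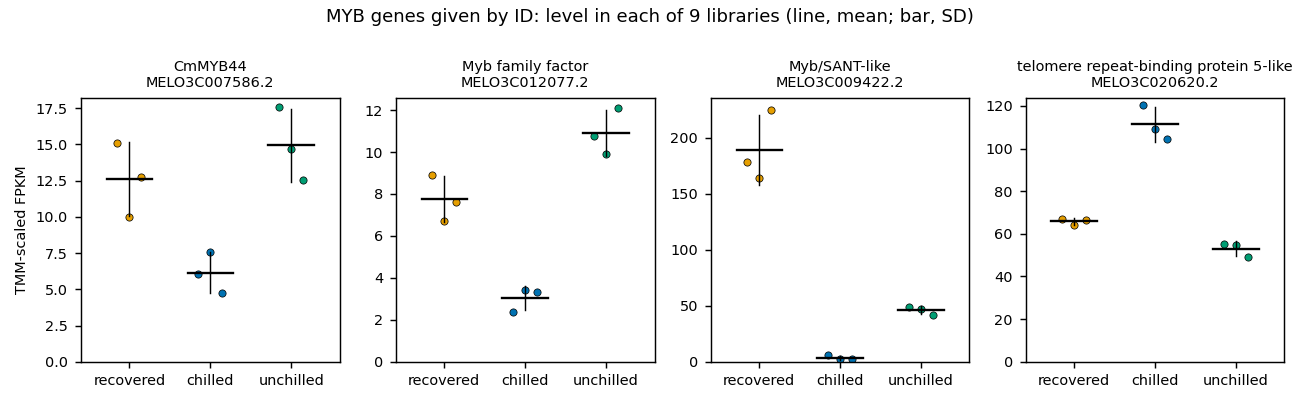
Transcript level (TMM-scaled FPKM, each panel with its own axis from 0) of the 4 MYB genes known by ID in recovered, chilled and unchilled fruit, with 1 point per library, a line at the mean and a bar of 1 SD (n = 3). Chilled libraries of CmMYB44 sit at 4.77 to 7.6, below both other groups, those of MELO3C009422.2 sit at 2.21 to 5.67 and those of MELO3C020620.2 at 104 to 120, above both.

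CmMYB44 was 1 of 8 genes described as MYB44 or MYB44-like, of which 6 were tested. This grouping was made after values were seen. They did not move together. MELO3C024799.2 was the most abundant, at 77.5, 43.3 and 57.4 TMM-scaled FPKM in recovered, 75.0, 54.7 and 55.0 in chilled and 83.1, 68.9 and 71.9 in unchilled fruit, and its groups overlapped. MELO3C016789.2 was at 40.7, 17.5 and 21.5 in recovered, 20.2, 33.3 and 29.2 in chilled and 66.5, 45.0 and 45.8 in unchilled fruit. Unchilled libraries of this gene stood above all others, but its log2 fold changes stayed under the threshold, at -0.93 for chilled and -0.98 for recovered over unchilled fruit (SE 0.33 each). The value for chilled over unchilled fruit passed it without chilled replicate 2 (-1.09), unchilled replicate 2 (-1.03) or unchilled replicate 3 (-1.02), and that for recovered over unchilled fruit without recovered replicate 1 (-1.43). MELO3C009678.2 gave 12.5, 12.0 and 13.1 in recovered, 21.8, 8.56 and 7.47 in chilled and 24.3, 15.6 and 24.9 in unchilled fruit, and chilled replicate 1 stood far from the other chilled libraries. Without it the value for chilled over unchilled fruit was -1.43, against -0.78 with it, and passed the test. With all libraries MELO3C009678.2 was called lower in that comparison on library totals (-1.30, edgeR adjusted p = 0.00998). Limma on log2(FPKM + 1) called it too (-1.31). MELO3C034442.2 was low throughout, between 1.12 and 3.56, with overlapping groups, and was called between recovered and unchilled fruit only without unchilled replicate 1 (1.13).

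MELO3C031994.2 (chr6:12872725-12873402), also MYB44-like, was seen almost only in chilled fruit. Its read counts were 0, 2 and 1 in recovered, 46, 22 and 52 in chilled and 0, 1 and 0 in unchilled fruit. Set against library size times the TMM factor, chilled fruit had 162 times the reads of unchilled fruit (95% counting interval 28.5 to 6443). On that scale they had 58.5 times those of recovered fruit (19.5 to 288). The gene was called in both comparisons (edgeR adjusted p = 3.31e-05 and 4.16e-05). Its mean FPKM of 1.19 passed the filter only through the chilled libraries, so that these calls are not independent of the filter. The fitted values of 6.85 for chilled over unchilled and -5.67 for recovered over chilled fruit rest on few reads, and were 8.64 without unchilled replicate 2 and -6.52 without recovered replicate 2. Of the untested genes of this name, MELO3C010893.2 had 1 read in recovered fruit, 0 reads in chilled fruit and 83 reads in unchilled fruit, 62 of them in replicate 1. MELO3C008549.2 had no read in any library.

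**Figure D2:**
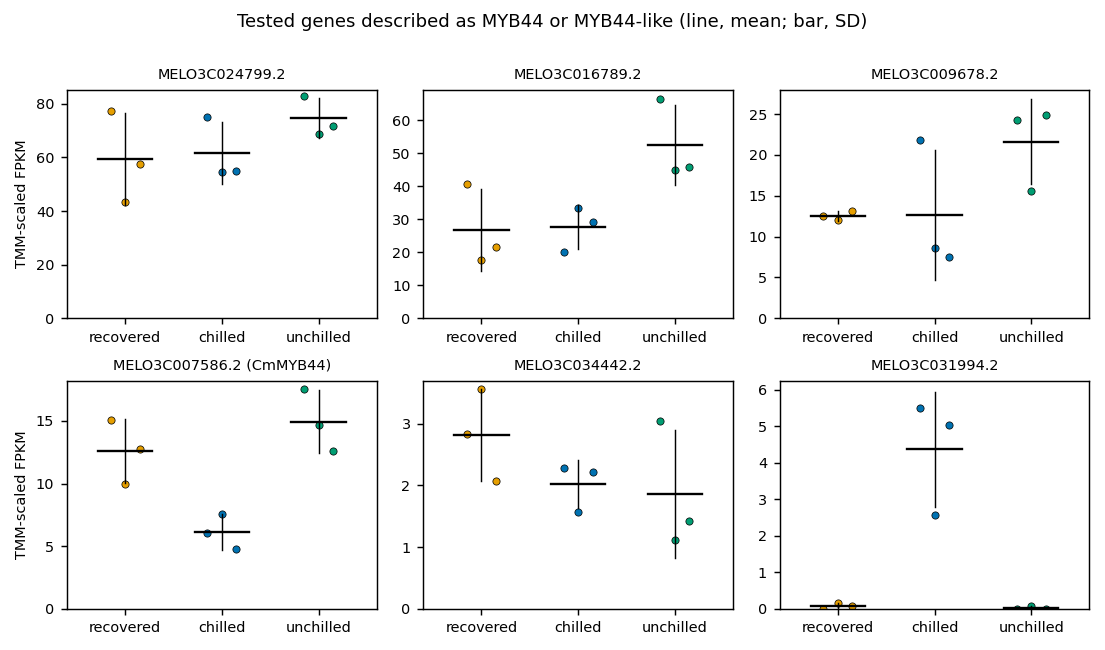
Transcript level (TMM-scaled FPKM, each panel with its own axis from 0) of the 6 tested genes described as MYB44 or MYB44-like in recovered, chilled and unchilled fruit, with 1 point per library, a line at the mean and a bar of 1 SD (n = 3). CmMYB44 dips to 4.77 to 7.6 in chilled fruit, MELO3C031994.2 reaches 2.58 to 5.52 in chilled fruit alone, and the other 4 have groups that overlap or, with TMM, differ by less than the threshold.

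Between chilled and unchilled fruit, 26 of the 67 tested MYB genes were higher and 17 lower in the chilled fruit. Among all 15022 tested genes 22.1% were called higher and 26.2% lower, 48.3% in all. The median log2 fold change was 0.17 over the MYB genes and -0.06 over all genes. The higher genes were 12 of the 24 without a subtype, 7 of the 15 MYB-related ones, 3 of the 12 with a number, 2 of the 5 GARP genes, 1 target of Myb and the telomere repeat-binding gene. The lower ones were 6, 4, 2 and 1 of the first 4 of these classes and 4 of the 6 Myb/SANT-like genes. The direction balance depended on the scaling: with library totals 18 were higher and 22 lower, so that 45.0% of calls were higher, against 60.5% with TMM. Over all tested genes the share of calls that were higher moved too, at 28.3% with library totals and 45.8% with TMM. Libraries did not overlap between the groups in 51 of the 67, against 78.3% of all tested genes.

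Between recovered and chilled fruit, 14 MYB genes were higher and 24 lower in recovered fruit, where 25.1% and 25.3% of all tested genes were called (50.4% in all). The median log2 fold change was -0.50 over the MYB genes and -0.02 over all genes. The lower genes were 11 without a subtype, 6 with a number, 5 MYB-related and 2 of the GARP type, and the higher ones included 4 Myb/SANT-like genes. With library totals 16 were higher and 18 lower, and the share of calls that were higher was 47.1%, against 36.8% with TMM. Over all tested genes that share was 67.9% with library totals and 49.9% with TMM. The groups did not overlap in 49 MYB genes, against 79.9% of all tested genes.

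Between recovered and unchilled fruit, 4 MYB genes were higher and 7 lower in recovered fruit. Of all tested genes 12.8% were called here, 3.66% higher and 9.15% lower, and the groups did not overlap in 31 MYB genes, against 52.9% of all. The medians were -0.06 over the MYB genes and 0.01 over all genes. The 3 libraries of each group gave a summed MYB level of 1540, 1444 and 1523 TMM-scaled FPKM in recovered, 2530, 2263 and 2232 in chilled and 1588, 1296 and 1309 in unchilled fruit, so that chilled libraries were on top. The summed level of all genes was also highest in chilled fruit on this scale. It was 513566 to 518698 in recovered, 727913 to 765424 in chilled and 522006 to 542597 in unchilled fruit. As a share of all reads, which is scaling by library totals, MYB genes took 0.261% to 0.274% in recovered, 0.282% to 0.292% in chilled and 0.229% to 0.267% in unchilled fruit.

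**Figure D3:**
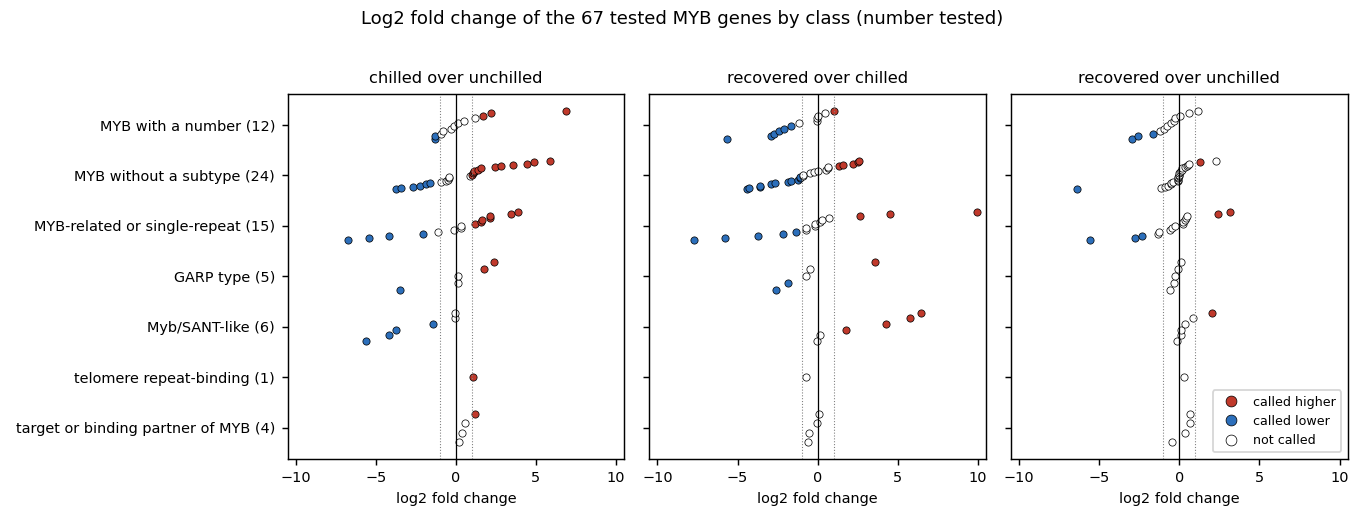
Log2 fold change (edgeR, x axis) of the 67 tested MYB genes by class (y axis, number tested in brackets) for chilled over unchilled, recovered over chilled and recovered over unchilled fruit. Each point is a gene, filled where called higher or lower and open where not called, with dotted lines at -1 and 1, and the 4 called Myb/SANT-like genes lie on the lower side in the chilled over unchilled panel and on the higher side in the recovered over chilled panel. The points of MELO3C005406.2 and MELO3C029852.2, which had no read in chilled fruit, are fitted values and no bounds.

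**Figure D4:**
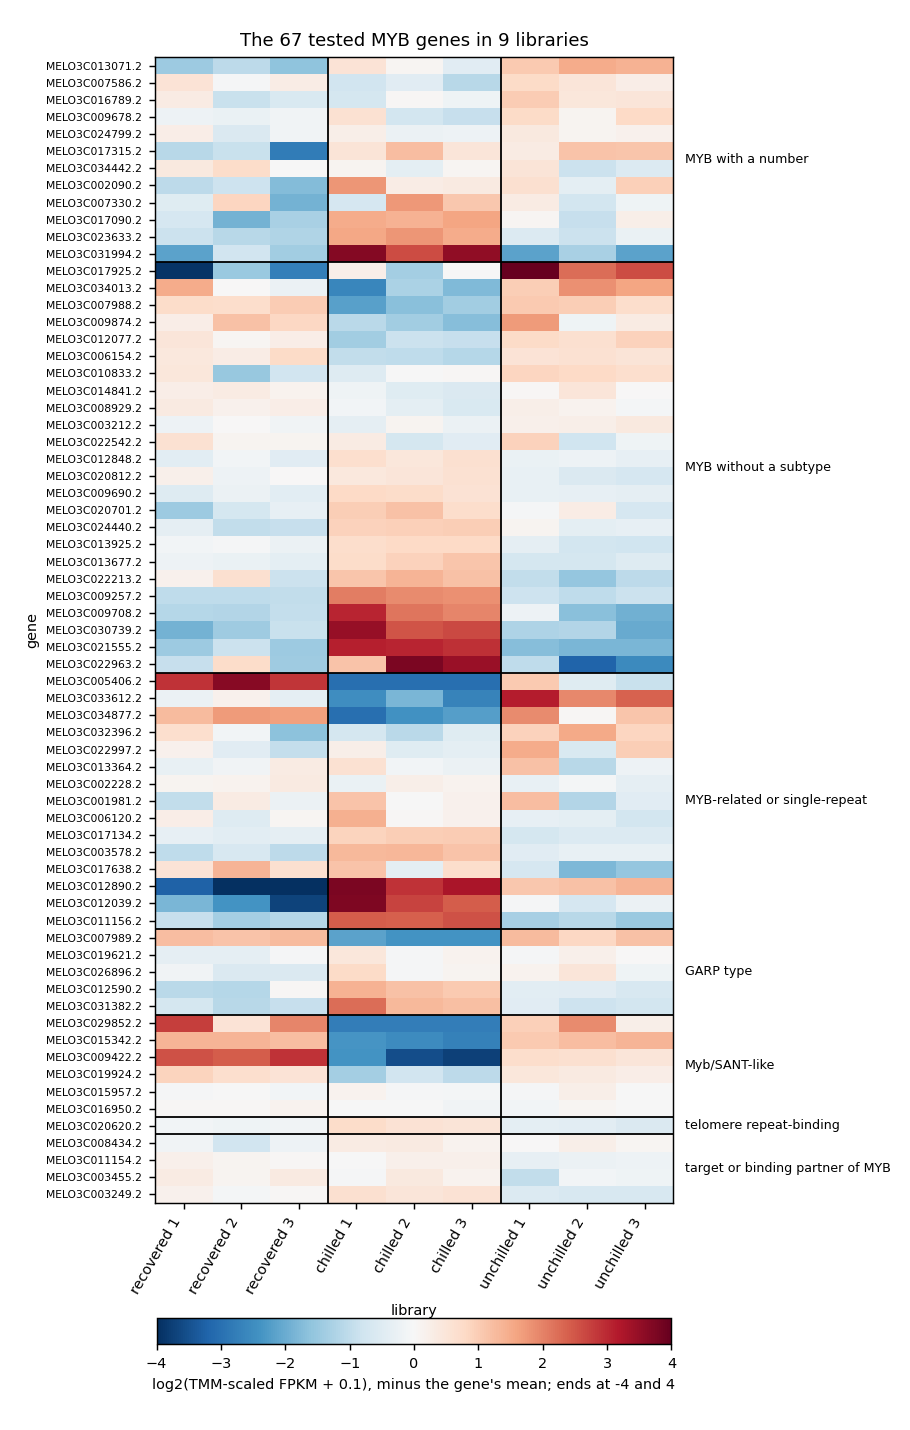
Level of the 67 tested MYB genes (rows, by class and then by log2 fold change of chilled over unchilled) in the 9 libraries (columns), as log2(TMM-scaled FPKM + 0.1) minus the gene's mean, with colours that end at -4 and 4. Chilled libraries are red for MELO3C021555.2 and MELO3C011156.2 and blue for MELO3C009422.2 and MELO3C015342.2, whereas MELO3C012890.2 and MELO3C012039.2 are lowest in recovered fruit.

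Among the genes without a subtype, several were low in both other groups and abundant in chilled fruit. MELO3C021555.2 was at 2.42, 3.74 and 2.45 TMM-scaled FPKM in recovered, 59.2, 57.6 and 52.1 in chilled and 2.03, 1.86 and 1.86 in unchilled fruit. Chilled fruit were 29.3-fold above unchilled fruit (log2 fold change 4.87, SE 0.19, edgeR adjusted p = 4.59e-08), and recovered fruit were 19.6-fold below chilled fruit (-4.29, SE 0.18, edgeR adjusted p = 6.09e-08). MELO3C030739.2 (chr4:33332381-33333013) was at 0.766, 1.10 and 1.63 in recovered, 36.2, 18.2 and 19.9 in chilled and 1.28, 1.35 and 0.700 in unchilled fruit, with 4.46 (SE 0.40) for chilled over unchilled and -4.38 (SE 0.39) for recovered over chilled fruit. MELO3C009257.2 (chr4:33311268-33316077), nearby on that chromosome, was at 10.3, 10.2 and 10.6 in recovered, 85.7, 77.3 and 73.8 in chilled and 11.7, 10.2 and 11.4 in unchilled fruit. Its log2 fold changes were 2.83 (SE 0.09, edgeR adjusted p = 2.11e-08) for chilled over unchilled and -2.93 (SE 0.09, edgeR adjusted p = 2.22e-08) for recovered over chilled fruit.

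Other genes of this class were higher in chilled fruit but with more spread. MELO3C009708.2 was at 12.1, 11.9 and 13.8 in recovered, 226, 119 and 104 in chilled and 23.5, 8.33 and 7.00 TMM-scaled FPKM in unchilled fruit. In chilled and in unchilled fruit replicate 1 was the high one, and without unchilled replicate 1 the log2 fold change of chilled over unchilled fruit was 4.27, against 3.53 (SE 0.50, edgeR adjusted p = 0.000201) with it. MELO3C022963.2 had 7, 26 and 5 reads in recovered, 23, 154 and 149 in chilled and 6, 0 and 1 in unchilled fruit. It was called in both comparisons with chilled fruit, at 5.86 (SE 1.11, edgeR adjusted p = 0.00115) over unchilled fruit, but this value was 7.84 without unchilled replicate 1 and 5.27 without unchilled replicate 2, and that for recovered over chilled fruit was -3.58 (SE 0.89), or -4.69 without recovered replicate 2.

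MELO3C013925.2 was the most abundant MYB gene of the table. Its levels were 234, 244 and 216 TMM-scaled FPKM in recovered, 411, 439 and 440 in chilled and 198, 150 and 144 in unchilled fruit. The groups did not overlap. Chilled fruit were 2.62-fold above unchilled fruit (log2 fold change 1.39, SE 0.12, edgeR adjusted p = 6.22e-06), whereas recovered over chilled fruit gave -0.89 (SE 0.12) and recovered over unchilled fruit 0.50 (SE 0.12), both under the fold threshold. With library totals the value for chilled over unchilled fruit was 0.89, so that this call depended on the scaling. MELO3C013677.2, at 23.4, 22.3 and 20.6 in recovered, 44.2, 51.1 and 57.7 in chilled and 16.3, 16.4 and 18.7 in unchilled fruit, gave 1.57 (SE 0.12) over unchilled fruit and -1.21 (SE 0.12) for recovered over chilled fruit, the second of which was -0.71 with library totals and no longer called. Further genes of the class called higher in chilled over unchilled fruit were MELO3C020812.2, MELO3C009690.2, MELO3C020701.2 and MELO3C024440.2, at 1.02 to 1.15, of which none passed with library totals. MELO3C020812.2 was not called without chilled replicate 3 or unchilled replicate 2 or 3, nor MELO3C020701.2 without chilled replicate 2 or unchilled replicate 3, at values of 0.87 to 0.99.

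On the lower side of this class, MELO3C007988.2 (chr8:6623374-6627144) was at 22.0, 21.2 and 26.8 TMM-scaled FPKM in recovered, 2.84, 4.05 and 4.90 in chilled and 27.4, 26.2 and 21.5 in unchilled fruit. Chilled fruit were 6.33-fold below unchilled fruit (log2 fold change -2.66, SE 0.20, edgeR adjusted p = 1.87e-06) and recovered fruit 5.90-fold above chilled fruit (2.56, SE 0.20, edgeR adjusted p = 2.11e-06). Its neighbour 1673 bases away on the same strand is another member, the APL-type MELO3C007989.2 (chr8:6628818-6634578), which was at 18.9, 17.7 and 19.5 in recovered, 1.74, 1.44 and 1.45 in chilled and 19.3, 14.3 and 18.2 in unchilled fruit. This gene was 11.2-fold lower in chilled than in unchilled fruit (-3.48, SE 0.16, edgeR adjusted p = 1.05e-07) and 12.1-fold higher in recovered than in chilled fruit (3.60, SE 0.16, edgeR adjusted p = 7.95e-08). Recovered and unchilled libraries overlapped in both neighbours.

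MELO3C006154.2, described as Cyclin-D-binding Myb-like transcription factor 1, a name known from mammals, was at 22.3, 20.6 and 28.4 in recovered, 8.40, 8.29 and 7.52 in chilled and 24.4, 25.9 and 24.1 TMM-scaled FPKM in unchilled fruit. Its log2 fold changes were -1.62 (SE 0.13, edgeR adjusted p = 2.92e-06) for chilled over unchilled and 1.56 (SE 0.13, edgeR adjusted p = 3.39e-06) for recovered over chilled fruit. MELO3C009874.2 was at 37.0, 70.1 and 55.2 in recovered, 14.5, 11.6 and 9.45 in chilled and 100, 27.6 and 39.0 in unchilled fruit, where replicate 1 stood apart. Its value for chilled over unchilled fruit was -2.23 (SE 0.49, edgeR adjusted p = 0.00276), or -1.51 without unchilled replicate 1, and that for recovered over chilled fruit was 2.19 (SE 0.49, edgeR adjusted p = 0.00292).

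MELO3C017925.2 was highest in unchilled fruit, at 0, 0.449 and 0.131 in recovered, 1.71, 0.500 and 1.42 in chilled and 32.6, 7.11 and 9.22 TMM-scaled FPKM in unchilled fruit. Chilled over unchilled fruit gave a log2 fold change of -3.74 (SE 0.79, edgeR adjusted p = 0.00235), or -2.76 without unchilled replicate 1, the highest library. Recovered over unchilled fruit gave -6.37 (SE 0.96, edgeR adjusted p = 0.00159), or -7.77 without recovered replicate 2 and -5.39 without unchilled replicate 1. The call of recovered over chilled fruit (-2.63, SE 1.07, edgeR adjusted p = 0.0496) was at the edge of the threshold. It was lost when recovered replicate 1 or 3, chilled replicate 1 or 3, or unchilled replicate 3 was left out, with values between -2.09 and -2.63, and the value was -4.03 without recovered replicate 2.

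Among the MYB-related and single-repeat genes, both genes named for 3R-1 were higher in chilled fruit. Plant 3R MYB factors are known to control genes of the cell division phase of the cell cycle. MELO3C011156.2 was at 1.10, 0.788 and 0.942 TMM-scaled FPKM in recovered, 12.1, 11.8 and 13.1 in chilled and 0.802, 0.944 and 0.716 in unchilled fruit. Chilled fruit were 15-fold above unchilled fruit (log2 fold change 3.91, SE 0.16, edgeR adjusted p = 6.85e-08) and recovered fruit 13.1-fold below chilled fruit (-3.71, SE 0.16, edgeR adjusted p = 7.27e-08). MELO3C003578.2, 3R-1-like, was at 3.83, 4.95 and 3.72 in recovered, 19.2, 19.9 and 17.5 in chilled and 5.73, 6.33 and 6.33 in unchilled fruit, with 1.62 (SE 0.12) for chilled over unchilled and -2.18 (SE 0.12) for recovered over chilled fruit. It overlaps an aspartate aminotransferase gene on the opposite strand by 1646 bases, whose log2 fold change was 0.24 and 0.02 in these comparisons.

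Of 4 tested genes described as MYB1R1, a single-repeat factor known from potato, all but MELO3C002228.2 were called higher in chilled than in unchilled fruit. MELO3C002228.2 was abundant and even, at 178, 184 and 212 TMM-scaled FPKM in recovered, 139, 195 and 182 in chilled and 134, 158 and 130 in unchilled fruit, and was called in none of the 3 comparisons. MELO3C017134.2 was at 120, 111 and 117 in recovered, 278, 299 and 304 in chilled and 91.3, 102 and 103 in unchilled fruit. It was 2.97-fold higher in chilled than in unchilled fruit (log2 fold change 1.57, SE 0.08, edgeR adjusted p = 1.59e-07) and 2.53-fold lower in recovered than in chilled fruit (-1.34, SE 0.08, edgeR adjusted p = 3.41e-07). With library totals the value for recovered over chilled fruit was -0.83, under the threshold. MELO3C012039.2 was at 0.975, 0.617 and 0.192 in recovered, 50.9, 24.5 and 20.3 in chilled and 3.58, 2.28 and 3.1 in unchilled fruit. Chilled fruit were 10.7-fold above unchilled fruit (3.41, SE 0.46, edgeR adjusted p = 0.000141), and recovered fruit were below both, at -5.76 (SE 0.55, edgeR adjusted p = 1.36e-05) over chilled and -2.34 (SE 0.56, edgeR adjusted p = 0.0117) over unchilled fruit. MELO3C017638.2 was low, at 1.58, 2.90 and 1.72 in recovered, 2.47, 0.775 and 1.78 in chilled and 0.629, 0.231 and 0.300 in unchilled fruit, where all libraries were below those of the other groups. Chilled over unchilled fruit gave 2.10 (SE 0.55, edgeR adjusted p = 0.00643), or 0.67 and no call with limma on log2(FPKM + 1). Recovered over chilled fruit gave 0.30 (SE 0.47) and was not called.

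MELO3C012890.2 (chr4:14008038-14010285), a MYB-related factor, had the largest fall of any tested MYB gene between recovered and chilled fruit. It was at 1.3, 0.519 and 0.136 TMM-scaled FPKM in recovered, 180, 97.7 and 128 in chilled and 27.9, 29.7 and 33.9 in unchilled fruit, from 25, 10 and 3 reads in the recovered libraries. Chilled fruit were 4.42-fold above unchilled fruit (log2 fold change 2.14, SE 0.36, edgeR adjusted p = 0.000546). Recovered fruit were 210-fold below chilled fruit (-7.72, SE 0.51, edgeR adjusted p = 1.52e-06) and 47.6-fold below unchilled fruit (-5.57, SE 0.49, edgeR adjusted p = 0.000166). Without recovered replicate 1, the highest of its group, the last 2 values were -8.70 and -6.56.

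At the other end of this class, MELO3C005406.2 (chr9:21334101-21335358) had no read in chilled fruit. Its read counts were 109, 187 and 123 in recovered, 0, 0 and 0 in chilled and 27, 9 and 6 in unchilled fruit. Against a floor of 3 reads over the chilled group, it was at least 10.4-fold lower in chilled fruit than in unchilled fruit and at least 95.5-fold higher in recovered than in chilled fruit. Both comparisons were called (edgeR adjusted p = 0.00486 and 0.000132), with a fitted value for chilled over unchilled fruit that was -6.75, and -5.82 without unchilled replicate 1. Recovered fruit were 9.09-fold above unchilled fruit (log2 fold change 3.18, SE 0.57, edgeR adjusted p = 0.00513), or 4.11 on the log2 scale without unchilled replicate 1.

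MELO3C033612.2 was at 1.07, 1.45 and 0.970 in recovered, 0.147, 0.286 and 0.118 in chilled and 12.2, 5.09 and 7.04 TMM-scaled FPKM in unchilled fruit. The 3 groups did not overlap, and chilled fruit were 43.3-fold below unchilled fruit (log2 fold change -5.44, SE 0.49, edgeR adjusted p = 6.36e-06). Recovered fruit lay between, 6.23-fold above chilled fruit (2.64, SE 0.54, edgeR adjusted p = 0.00137). MELO3C034877.2 was at 4.21, 5.71 and 5.44 in recovered, 0.119, 0.232 and 0.288 in chilled and 6.49, 1.75 and 3.76 in unchilled fruit, and was 18.0-fold lower in chilled than in unchilled fruit (-4.17, SE 0.56, edgeR adjusted p = 0.000102) and 23.0-fold higher in recovered than in chilled fruit (4.52, SE 0.56, edgeR adjusted p = 5.2e-05).

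Of the genes with a number beyond MYB44, those described here were named after Arabidopsis factors of flowers and stress. MYB108, which acts in stamen maturation and in responses to stress in Arabidopsis, stood for 5 melon genes, of which 2 were tested. MELO3C002090.2 was at 14.2, 16.4 and 8.81 TMM-scaled FPKM in recovered, 99.4, 35.9 and 37.5 in chilled and 45.5, 22.3 and 56.5 in unchilled fruit. Recovered libraries were below all others, at a log2 fold change of -2.13 (SE 0.50, edgeR adjusted p = 0.00388) over chilled fruit, or -1.48 without chilled replicate 1. MELO3C023633.2 was at 1.58, 1.3 and 1.2 in recovered, 8.79, 10.3 and 8.45 in chilled and 1.96, 1.56 and 2.44 in unchilled fruit, with 2.20 (SE 0.21, edgeR adjusted p = 1.07e-05) for chilled over unchilled and -2.75 (SE 0.22, edgeR adjusted p = 2.67e-06) for recovered over chilled fruit. The MYB98-like MELO3C017090.2, whose Arabidopsis namesake acts in the female gametophyte, was at 0.828, 0.299 and 0.490 in recovered, 3.98, 3.77 and 4.27 in chilled and 1.46, 0.670 and 1.63 in unchilled fruit. It was called in both comparisons with chilled fruit, at 1.68 (SE 0.39) over unchilled fruit and -2.89 (SE 0.42) for recovered over chilled fruit. For recovered over unchilled fruit it gave -1.21 (SE 0.43, edgeR adjusted p = 0.0512) which passed with DESeq2 (-1.17), with a replicate block (-1.21) and without recovered replicate 1 (-1.64) or unchilled replicate 2 (-1.51).

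The 5 tested GARP genes were all described as APL or APL-like, after the Arabidopsis regulator of phloem identity. MELO3C031382.2 was at 2.66, 1.99 and 2.25 TMM-scaled FPKM in recovered, 20.9, 10.8 and 10.1 in chilled and 3.19, 2.41 and 2.59 in unchilled fruit. It was 5.08-fold higher in chilled than in unchilled fruit (log2 fold change 2.35, SE 0.32, edgeR adjusted p = 9.84e-05). MELO3C012590.2, at 6.91, 6.64 and 15.2 in recovered, 38.3, 33.3 and 30.6 in chilled and 10.9, 10.7 and 9.42 in unchilled fruit, gave 1.72 (SE 0.30, edgeR adjusted p = 0.000614). These 2 were lower in recovered than in chilled fruit, by -2.59 (SE 0.32) and -1.83 (SE 0.30). The remaining 2, MELO3C019621.2 and MELO3C026896.2, stayed between 2.38 and 12.7 in all libraries and were not called, whereas MELO3C007989.2 was lower in chilled fruit, as given above.

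The Myb/SANT-like class gave most of its reads from 1 gene, since MELO3C009422.2 held 68.1% of the class's reads. Of the other 5 tested genes, MELO3C015342.2 (chr2:912542-922643) was at 4.87, 4.84 and 4.48 TMM-scaled FPKM in recovered, 0.278, 0.241 and 0.200 in chilled and 3.93, 4.47 and 4.86 in unchilled fruit. Chilled fruit were 18.4-fold below unchilled fruit (log2 fold change -4.20, SE 0.19, edgeR adjusted p = 1.07e-07) and recovered fruit 19.7-fold above chilled fruit (4.30, SE 0.19, edgeR adjusted p = 8.41e-08). MELO3C019924.2 was at 10.02, 8.48 and 7.80 in recovered, 2.0, 3.05 and 2.52 in chilled and 7.36, 6.87 and 6.34 in unchilled fruit, with -1.44 (SE 0.19) and 1.79 (SE 0.19) in these comparisons. Against them, MELO3C015957.2 stayed between 14.3 and 18.1 and MELO3C016950.2 between 4.71 and 5.77 in all 9 libraries. MELO3C016950.2 overlaps a glutathione peroxidase gene on the opposite strand, MELO3C016951.2, by 968 bases. The log2 fold changes of that gene were 0.31 for chilled over unchilled and -0.24 for recovered over chilled fruit.

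The short MELO3C029852.2 (chr3:1802650-1802886) had 20, 4 and 13 reads in recovered, 0, 0 and 0 in chilled and 5, 11 and 3 in unchilled fruit. Against the floor of 3 reads it was at least 4.70-fold lower in chilled fruit than in unchilled fruit and at least 8.44-fold higher in recovered than in chilled fruit. Both were called (edgeR adjusted p = 0.0187 and 0.00608), with fitted values of -5.60 and 6.44 that were -4.98 without unchilled replicate 2 and 5.84 without recovered replicate 1. All 237 of its bases lie within a gene for a nucleolar complex protein on the opposite strand, MELO3C008200.2, whose log2 fold changes were -0.54 and 0.90. A similar overlap, of 541 bases, joins the MYB gene MELO3C034013.2 to the mitochondrial carrier gene MTM1 (MELO3C005868.2). MELO3C034013.2 had 64, 23 and 22 reads in recovered, 2, 6 and 5 in chilled and 42, 83 and 67 in unchilled fruit, and gave -3.42 (SE 0.60, edgeR adjusted p = 0.000602) for chilled over unchilled and 2.52 (SE 0.62, edgeR adjusted p = 0.00421) for recovered over chilled fruit, or 1.78 without recovered replicate 1. For recovered over unchilled fruit it gave -0.90 (SE 0.48) and passed only without recovered replicate 1 (-1.64). MTM1 gave -1.47 and 1.12. Whether counting used the strand is not stated in the sources used here, so that reads from either gene of such pairs cannot be told apart.

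The 4 genes described as target of Myb protein 1 are named for a protein of vesicle sorting. MELO3C003249.2 was the one called. It was at 25.2, 21.2 and 23.5 TMM-scaled FPKM in recovered, 35.0, 31.5 and 33.9 in chilled and 15.3, 14.6 and 14.5 in unchilled fruit, and gave a log2 fold change of 1.18 (SE 0.09, edgeR adjusted p = 2.15e-06) for chilled over unchilled fruit, or 0.68 with library totals, under the threshold. Without these 4 genes the MYB genes higher in chilled fruit numbered 25, and the counts of the other directions were as above.

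The 11 MYB genes called between recovered and unchilled fruit came from several classes. Those higher in recovered fruit were MELO3C005406.2 (log2 fold change 3.18), the MYB1R1 gene MELO3C017638.2 (2.40, SE 0.54, edgeR adjusted p = 0.00796), MELO3C009422.2 (2.03) and MELO3C022213.2 (1.3). MELO3C022213.2 was at 8.33, 11.6 and 4.10 TMM-scaled FPKM in recovered, 16.0, 19.4 and 16.8 in chilled and 3.72, 2.47 and 3.55 in unchilled fruit. Its call (SE 0.34, edgeR adjusted p = 0.0166) was lost without recovered replicate 2 (0.93) or unchilled replicate 2 (1.14). In chilled fruit it was 5.35-fold higher than in unchilled fruit (2.42, SE 0.35, edgeR adjusted p = 0.000168), and recovered over chilled fruit gave -1.12 (SE 0.33), or -0.80 and no call without recovered replicate 3.

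Those lower in recovered than in unchilled fruit were MELO3C017925.2 (-6.37), MELO3C012890.2 (-5.57), MELO3C013071.2 (-2.98), MELO3C033612.2 (-2.80), MELO3C017315.2 (-2.55), MELO3C012039.2 (-2.34) and MELO3C002090.2 (-1.66). MELO3C013071.2 is described as MYB26 and MELO3C017315.2 as MYB24-like, after stamen factors of Arabidopsis. MELO3C013071.2 had only 2, 3 and 2 reads in recovered, 7, 5 and 4 in chilled and 14, 21 and 19 in unchilled fruit, with a value of -2.98 (SE 0.45, edgeR adjusted p = 0.00121) for recovered over unchilled fruit. Its call for chilled over unchilled fruit (-1.29) was lost with DESeq2 (-1.25, adjusted p = 0.0597) and without chilled replicate 3 (-1.03). That for recovered over chilled fruit (-1.69) was lost with library totals (-1.20, edgeR adjusted p = 0.0612) and without chilled replicate 1 (-1.39). MELO3C017315.2 had 10, 12 and 2 reads in recovered, 23, 40 and 28 in chilled and 28, 55 and 52 in unchilled fruit, and was lower in recovered than in unchilled fruit at -2.55 (SE 0.55, edgeR adjusted p = 0.00655). The call of MELO3C002090.2 (SE 0.49, edgeR adjusted p = 0.0293) was lost when any recovered library, unchilled replicate 1 or unchilled replicate 3 was left out, with values between -1.37 and -1.85.

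**Figure D5:**
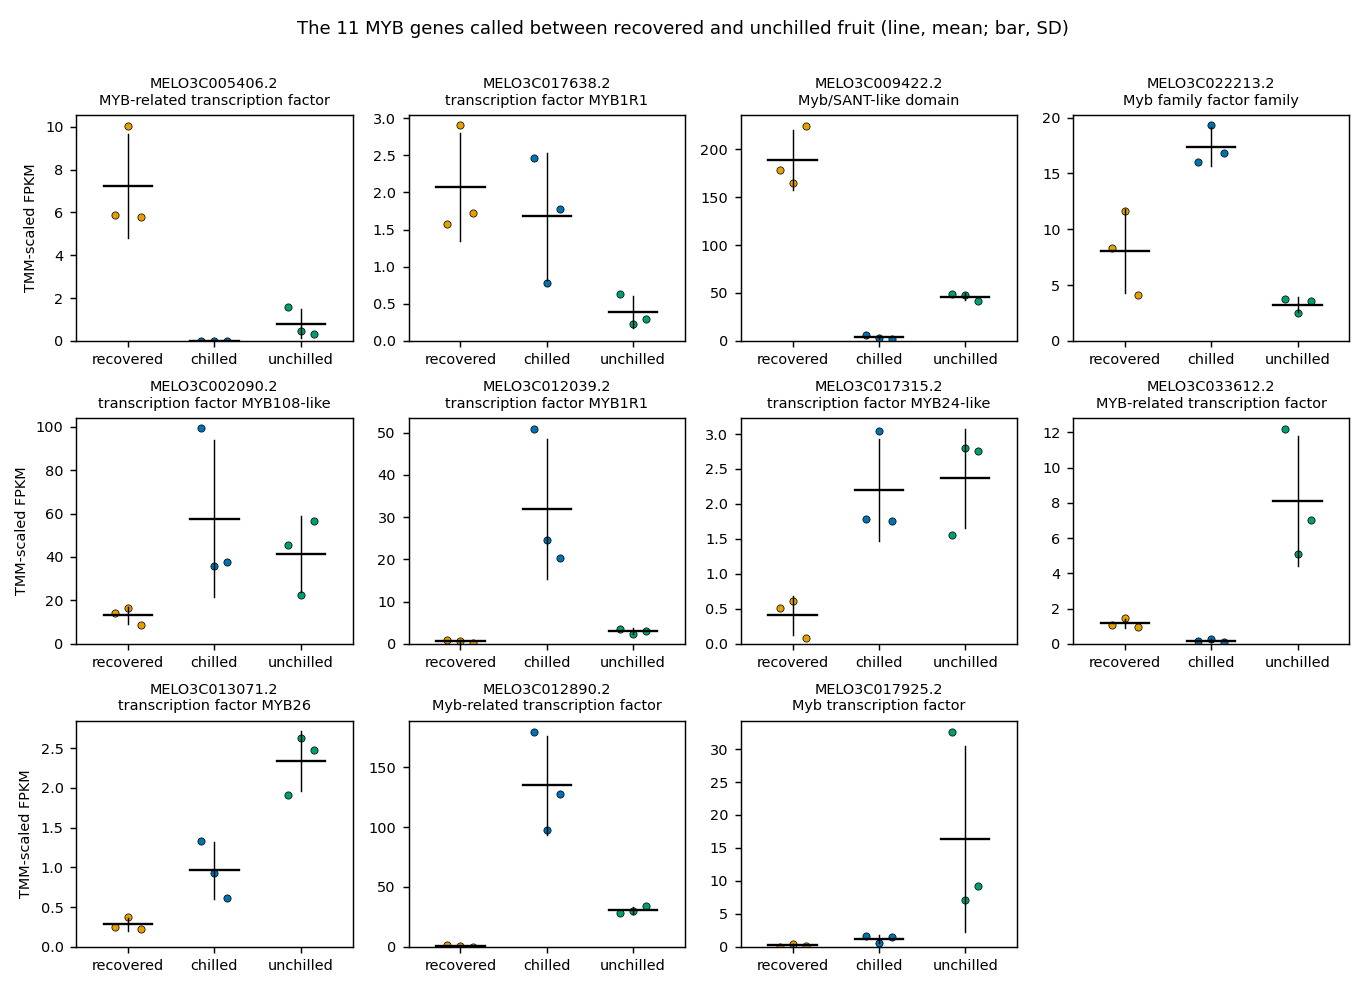
Transcript level (TMM-scaled FPKM, each panel with its own axis from 0) of the 11 MYB genes called between recovered and unchilled fruit, with 1 point per library of recovered, chilled and unchilled fruit, a line at the mean and a bar of 1 SD (n = 3). The first 4 panels hold the genes higher in recovered than in unchilled fruit, such as MELO3C009422.2 at 164 to 224 against 42.1 to 49.2, and the other 7 those lower, such as MELO3C012890.2 at 0.136 to 1.3 against 27.9 to 33.9.

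Below the level filter, the most counted members were the Myb/SANT-like MELO3C018355.2 with 314 reads, the MYB108 gene MELO3C006728.2 with 229 and the Myb/SANT-like MELO3C029694.2 with 220. MELO3C018355.2 had 15, 25 and 7 reads in recovered, 32, 17 and 28 in chilled and 42, 79 and 69 in unchilled fruit. MELO3C006728.2 had 38, 14 and 36 reads in recovered, 22, 52 and 42 in chilled and 8, 2 and 15 in unchilled fruit, where the level was lowest. MELO3C029694.2 had 27, 38 and 37 reads in recovered, 0, 0 and 2 in chilled and 37, 40 and 39 in unchilled fruit. Set against library size times the TMM factor, unchilled fruit had 43.0 times the reads of chilled fruit (95% counting interval 11.6 to 359). Recovered fruit had 34.9 times the reads of chilled fruit on that scale (9.41 to 292). Another MYB108 gene, MELO3C012926.2, had 1, 0 and 0 reads in recovered, 55, 22 and 15 in chilled and 0, 3 and 1 in unchilled fruit, and was chosen after its values were seen. Intervals and floors cover counting error only.

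Genes of processes in which plant MYB factors act were counted in the same fit. Of 98 phenylpropanoid and flavonoid genes 64 were tested, and for chilled over unchilled fruit 9 of them were higher and 34 lower (5 and 40 with library totals), with a median log2 fold change of -1.41, where 22.1% of all tested genes were called higher and 26.2% lower. Recovered over chilled fruit gave 21 higher and 17 lower (26 and 16 with library totals), against 25.1% and 25.3% of all genes, and recovered over unchilled fruit 5 higher and 21 lower, against 3.66% and 9.15%. These shares of all genes are with TMM. With library totals 2241 of the 15022 tested genes were higher and 5688 lower for chilled over unchilled fruit. For recovered over chilled fruit 5472 were higher and 2584 lower on that scale. Chalcone synthase MELO3C014767.2, the first enzyme of flavonoid synthesis, was at 0.584, 1.36 and 0.648 TMM-scaled FPKM in recovered, 63.5, 32.7 and 39.4 in chilled and 244, 85 and 82.2 in unchilled fruit. Recovered fruit were below both other groups, at -5.71 (SE 0.62, edgeR adjusted p = 3.43e-05) over chilled and -7.31 (SE 0.64, edgeR adjusted p = 0.000167) over unchilled fruit. Dihydroflavonol reductase MELO3C035246.2, a later enzyme of the pathway, was at 186, 121 and 181 in recovered, 2.18, 3.35 and 2.27 in chilled and 48.2, 93.7 and 79.6 in unchilled fruit, and was 62.7-fold higher in recovered than in chilled fruit (5.97, SE 0.34, edgeR adjusted p = 6.05e-07).

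Clock factors of the LHY and REVEILLE type carry a MYB-like repeat without the word in their description. All 7 tested of 8 were called, with 6 higher and 1 lower for chilled over unchilled fruit and 1 higher and 6 lower in recovered than in chilled fruit, with the same counts under library totals. Of all tested genes 48.3% and 50.4% were called in these comparisons with TMM. The gene described as REVEILLE 6-like, MELO3C005840.2, was at 19.2, 21.2 and 20.8 TMM-scaled FPKM in recovered, 336, 372 and 355 in chilled and 13.9, 14.1 and 15.4 in unchilled fruit. LHY-like MELO3C022302.2 was lowest in chilled fruit, at 118, 92.0 and 107 in recovered, 36.1, 30.1 and 31.8 in chilled and 86.5, 91.6 and 90.6 in unchilled fruit. The time of day of sampling was not known.

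Words in descriptions gave 4 genes tied by name to the complex of MYB, bHLH and WD40 proteins, which need not be its partners. Of these 2 were tested, and both were called higher in chilled than in unchilled fruit and lower in recovered than in chilled fruit. Among all tested genes 22.1% and 25.3% were called in these directions with TMM. GLABRA 2, a homeobox gene that this complex controls in Arabidopsis, gave 3.81 (SE 0.29, edgeR adjusted p = 2.12e-06) and -3.68 (SE 0.29, edgeR adjusted p = 2.15e-06) for MELO3C024256.2. Its mean level was 0.506 TMM-scaled FPKM in recovered, 6.58 in chilled and 0.466 in unchilled fruit. It thus passed the filter only through the chilled libraries, and these calls are not independent of the filter. Protein phosphatases of type 2C, a family with negative regulators of abscisic acid signalling, had 17 higher and 13 lower of 56 in chilled over unchilled fruit (11 and 19 with library totals), 14 and 16 in recovered over chilled fruit (18 and 14 with library totals) and 3 and 4 in recovered over unchilled fruit. The 53.6% called in each of the comparisons with chilled fruit lay near the 48.3% and 50.4% of all tested genes, all with TMM. Counts over all genes with library totals are given above.

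The list of ester and ripening genes held 13, of which 12 were tested. For chilled over unchilled fruit 3 were higher and 9 lower (2 and 9 with library totals), with 5 and 4 in recovered over chilled fruit (8 and 3 with library totals) and 1 and 3 in recovered over unchilled fruit, where 48.3%, 50.4% and 12.8% of all tested genes were called. These shares of all genes are with TMM, and the all-gene counts with library totals are given above. The listed genes were taken from the study, which chose them in these libraries, so that their counts are not independent evidence. CmAAT1, an alcohol acyltransferase of acetate ester synthesis, gave -2.71 (SE 0.16) for chilled over unchilled fruit and 2.97 (SE 0.17) for recovered over chilled fruit. CmAAT3 was at 0.521, 1.10 and 0.346 TMM-scaled FPKM in recovered, 0.0463, 0.181 and 0.187 in chilled and 2.44, 3.33 and 12.6 in unchilled fruit. CmAAT3 was lower in chilled than in unchilled fruit (-5.40, SE 0.89, edgeR adjusted p = 0.000493), and recovered over chilled fruit gave 2.17 (SE 0.99, edgeR adjusted p = 0.0726). It passed the filter only through the unchilled libraries, so that its call is not independent of the filter. Beside them CmMYB44 gave -1.29 and 1.04 for the same comparisons, as given above.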

How the data were processed

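RNA-seq libraries of 9 melon fruit samples, 3 per group, were analysed. The authors deposited 1 table with raw counts and FPKM of every gene in each library. The deposited FPKM matched counts over length and library total to within 4.5e-11. All value columns were used. Per the paper's methods, reads (Illumina NovaSeq, paired) were trimmed with Cutadapt, aligned with HISAT2 to DHL92 version 3.5.1 and counted with HTSeq; the submitters' processing notes name cutadapt 1.15 and HISAT2 2.0.5. The table names no build for its coordinates, and no sequence was matched to these gene IDs.

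Counts of all genes with a mean deposited FPKM above 1 (15022) were fitted in R 4.3.3 with edgeR 4.0.16 (TMM, robust glmQLFit, glmQLFTest, 9 libraries in 1 fit, no block), with Benjamini-Hochberg adjustment over all 15022. The filter took the mean of all libraries, so that some genes were tested only through the group where they were high. MELO3C031994.2, MELO3C022963.2, MELO3C005406.2, MELO3C013071.2, MELO3C033612.2 and MELO3C017925.2 are examples, and so are CmAAT3 and the GLABRA 2 gene MELO3C024256.2. The calls of all these genes are tied to the filter. SE was derived from the log2 fold change and the root of the F statistic. Replicate numbers do not pair the samples. The steps were tested on simulated data. Alternatives were DESeq2 1.42.0, its size factors, library totals, other filters, thresholds and fits, limma 3.58.1 on log2(FPKM + 1) and log2(FPKM + 0.1), and each library left out. Members, lists and tests were chosen with earlier results of these data known.

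Genes were named by a rule: the 4 known by ID, the 10 highest and 10 lowest called, non-overlapping members per comparison with chilled fruit (6 and 6 for recovered over unchilled) with at least 2 TMM-scaled FPKM, the extremes of each class, the 6 most abundant, the 3 most counted untested ones, and extremes of other lists. Other named members were chosen after values were seen.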

Additional observations from a re-analysis of the deposited data

How the results depend on the processing

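The number of MYB genes higher in chilled than in unchilled fruit was 26, and 16 with limma on log2(FPKM + 1); the number lower was 17, and 27 without the FPKM filter. For recovered over unchilled fruit the counts were 4 and 7, and 14 and 11 with no fold threshold. With each library left out in turn the counts ranged from 23 to 27 higher and 16 to 19 lower for chilled over unchilled fruit, 13 to 14 and 22 to 26 for recovered over chilled fruit, and 3 to 5 and 6 to 11 for recovered over unchilled fruit, where the 11 came without recovered replicate 1. A replicate block gave 26 and 17, 14 and 23, and 4 and 8 in these comparisons. It has no basis in the design, since deviations of same-numbered libraries correlated at -0.137 to 0.149. No call of a named gene reversed its direction under the alternatives run, whereas some values that were not called changed sign, such as MELO3C002228.2 for chilled over unchilled fruit, at 0.29 and, with library totals, -0.21. The 71 members with reads but under the filter were not part of the main fit, and entered only alternatives with another filter or none. Those of them named above are given as reads or as ratios of reads.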
